A study of Mus musculus with 24 samples.

Results

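The comparison set the cytoplasmic RNA of Mkrn3ox cells against that of wt cells, and used 6 of the 24 libraries of the series, 3 from each line. Both lines are GT1-7, an immortalised mouse line of hypothalamic neurons that makes gonadotropin-releasing hormone (GnRH). Mkrn3ox cells carry a stable transgene for Mkrn3 fused to green fluorescent protein (GFP), and wt cells carry none. The labels give no treatment of either line, do not name the promoter of the transgene, do not say whether the Mkrn3ox line is a single clone, and list no line with stable GFP alone. Another 3 libraries of total RNA from each line were fitted together with the cytoplasmic ones. The inputs of an RNA immunoprecipitation (RIP) experiment, 6 libraries of GT1-7 cells transfected with a GFP-Mkrn3 or a GFP plasmid, served only to show how abundant each gene was in a second table. The series title concerns RNA binding by Mkrn3 and the place where the Gnrh1 precursor is made, and the question put to these 6 libraries was which RNAs differ in the cytoplasm of the line with the transgene.

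Makorins are proteins with zinc fingers that bind RNA and a RING domain that attaches ubiquitin to other proteins. In the cytoplasm, mRNAs of secreted, membrane and vesicle proteins are mostly translated by ribosomes on the endoplasmic reticulum (ER), while mRNAs of cytosolic, ribosomal and most nuclear-encoded mitochondrial proteins are mostly translated by free ribosomes. In a neuroendocrine cell such as the GnRH neuron, the ER and the Golgi also supply the vesicles in which prohormones are cut, trimmed and amidated.

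RNA was measured by CEL-seq2, which counts the 3′ ends of RNAs. The Mkrn3ox cytoplasmic libraries held 374386 to 465260 counts over 8720 to 9367 detected rows of the table, and the wt cytoplasmic libraries 412605 to 582256 counts over 8309 to 9092 rows. Levels are in CPM, counts scaled to libraries of equal size with TMM factors, in the order of replicates 1, 2 and 3, and a change is the log2 fold change of Mkrn3ox over wt. A row was called higher or lower at an adjusted p under 0.05 in edgeR's quasi-likelihood test, fitted to all 12 libraries of the experiment with Benjamini-Hochberg adjustment over 5033 tested rows. Nothing in the labels ties the libraries of a group to separate cultures, so the p-values measure spread among libraries that may be technical. In RNA of whole cultures, fewer cells with an RNA cannot be told apart from less of it per cell. The targeted gene could not be tested: the row of Mkrn3 held 1, 0 and 5 counts in the Mkrn3ox libraries and 1, 0 and 0 counts in the wt libraries. The 3′ end of the transgene was not given in the sources used here. These counts therefore do not check the labels.

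The rows of the table need care before any is read as its gene. Over the 5033 tested rows, the levels in wt cytoplasm ranked almost independently of the levels in the RIP inputs of the same cell line (Spearman's rank correlation 0.120, over rows that share their libraries), whereas the GFP-Mkrn3 inputs ranked like the GFP inputs (0.997) and Mkrn3ox cytoplasm like wt cytoplasm (0.794). Of the 20 most abundant rows of wt cytoplasm, 13 lay within 5 kb of a gene on the opposite strand that was more abundant in the inputs, against 0 of the 20 most abundant rows of the inputs. The rank correlation was −0.09 over the 1288 rows with a more abundant gene of any strand within 5 kb and 0.294 over the other 3745 rows. These 3745 rows include those of unknown position, for which no neighbour could be sought. Over the 3316 of them with at least 10 CPM in the inputs the correlation was 0.344, so a row without such a gene may also differ from its level in the inputs. CEL-seq2 keeps the strand of an RNA, and the strand setting of the counting was not given in the sources used here. Values below are therefore those of the named row, and a more abundant gene that overlaps it or lies within 5 kb is named with it, in CPM of the inputs. Such a gene stood beside 1288 of the 5033 tested rows (25.6%) and 169 of the 526 called rows (32.1%). A position was known for 4691 of the tested rows, and the others count as having no such gene.

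**Figure D1:**
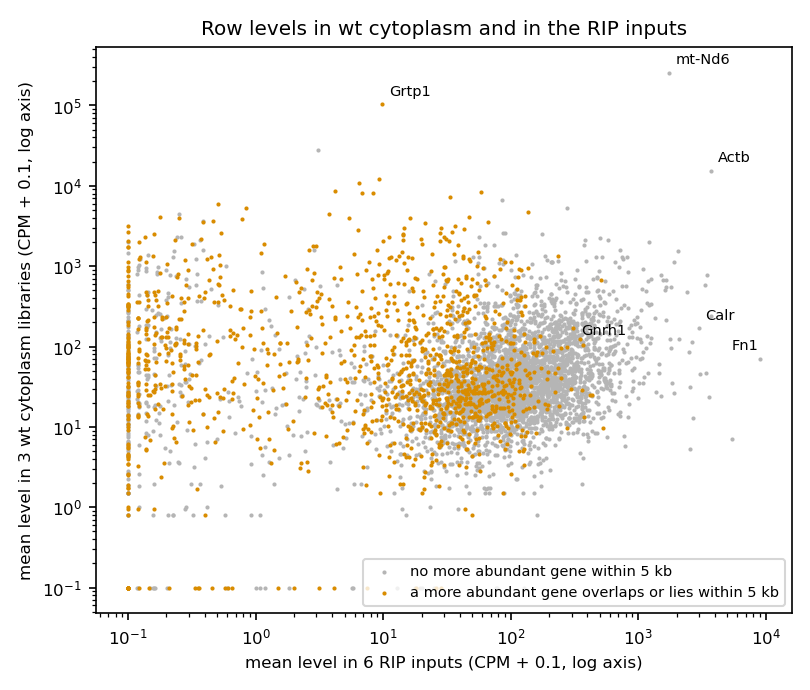
Mean level of each of the 5033 tested rows in the 3 wt cytoplasm libraries (vertical) against the 6 RIP inputs (horizontal), in CPM + 0.1 on log axes. Orange points have a more abundant gene overlapping or within 5 kb, and the other points include rows of unknown position. The cloud shows little slope (rank correlation 0.120), and the rows of Grtp1 and mt-Nd6 stand far above the rest in wt cytoplasm.

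In the cytoplasm 526 of 5033 tested rows (10.5%) differed between the lines. Of these, 217 (4.31% of tested rows) were higher and 309 (6.14%) lower in Mkrn3ox, and 1197 rows had an unadjusted p under 0.05. These shares are the background for every count below, and a list whose count lies near them shows no more calls than rows at large. Separate groups, where stated below, describe rows that the test had mostly already picked. The share of all tested rows with separate groups is not given here, so separation adds no support to a call. In total RNA 179 rows (3.56%) were higher and 193 (3.83%) lower. The most abundant row of the table, that of mt-Nd6, the only mRNA encoded on the light strand of the mitochondrial genome, took 9.80, 12.1 and 10.9% of the counts of the Mkrn3ox libraries, against 21.5, 23.2 and 18.6% of the wt libraries. The split depended on the scaling. With library size in place of TMM the median change of all rows was 0.375, against 0.03, and the split was 507 higher and 189 lower rows. With mt-Nd6 and Grtp1 taken out the counts were 218 and 306. The call of a row was also recomputed with each of the 6 cytoplasmic libraries left out in turn and in up to 9 other fits, and the paragraphs below name, as Mkrn3ox 1 or wt 2, libraries without which a row lost its call. Leaving out Mkrn3ox library 1, wt library 1 or wt library 2 left 140, 137 and 132 higher rows.

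One chromosome stood apart, and it was looked at after the called rows had been seen. Of 246 tested rows on chromosome 8, 47 (19.1%) were lower and 2 (0.813%) higher in Mkrn3ox cytoplasm, against 5.93% lower and 4.26% higher among all 4691 rows with a known position. The shift was spread over the rows: 185 of the 246 had a negative change, and their median was −0.48, where the medians of the other nuclear chromosomes lay between −0.33 (X) and 0.354 (15). In total RNA the median of chromosome 8 was −0.64 and 36 rows were lower, with the other medians between −0.43 (X) and 0.248 (11). Divided into 7 windows of 20 Mb, chromosome 8 had a negative median in every window, −0.40 to −0.69 in the cytoplasm and −0.21 to −0.78 in total RNA.

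Each Mkrn3ox library showed it. Over the 71 chromosome 8 rows with at least 100 CPM, the median deviation from the wt cytoplasm mean (log2) was −0.60, −0.64 and −0.66 in the Mkrn3ox cytoplasmic libraries, against 0.09, −0.02 and −0.04 in the wt cytoplasmic libraries. The corresponding deviations from the wt total mean were −0.70, −0.60 and −0.64 in Mkrn3ox total RNA, against 0.16, −0.14 and 0.05 in wt total RNA. The lines did not overlap in either fraction. Over 15 other settings of the fit the median of chromosome 8 minus that of all rows stayed between −0.15, with no filter on low counts, and −0.61. Among the other chromosomes X had the lowest median, with 19 of 180 rows lower (10.6%) and 1 higher, and chromosome 10 the highest share of lower rows, also 10.6% (23 of 216). Of the 66 lower rows picked by the naming rule 12 lie on chromosome 8, among them Calr, Cpe, Rab3a, Jund, Cdh11, Itgb1, Spcs3 and Efnb2, and of the 64 higher ones only Mt2 does. The part of the chromosome in each of these results was not tested, and medians without its rows are given below for some lists only.

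**Figure D2:**
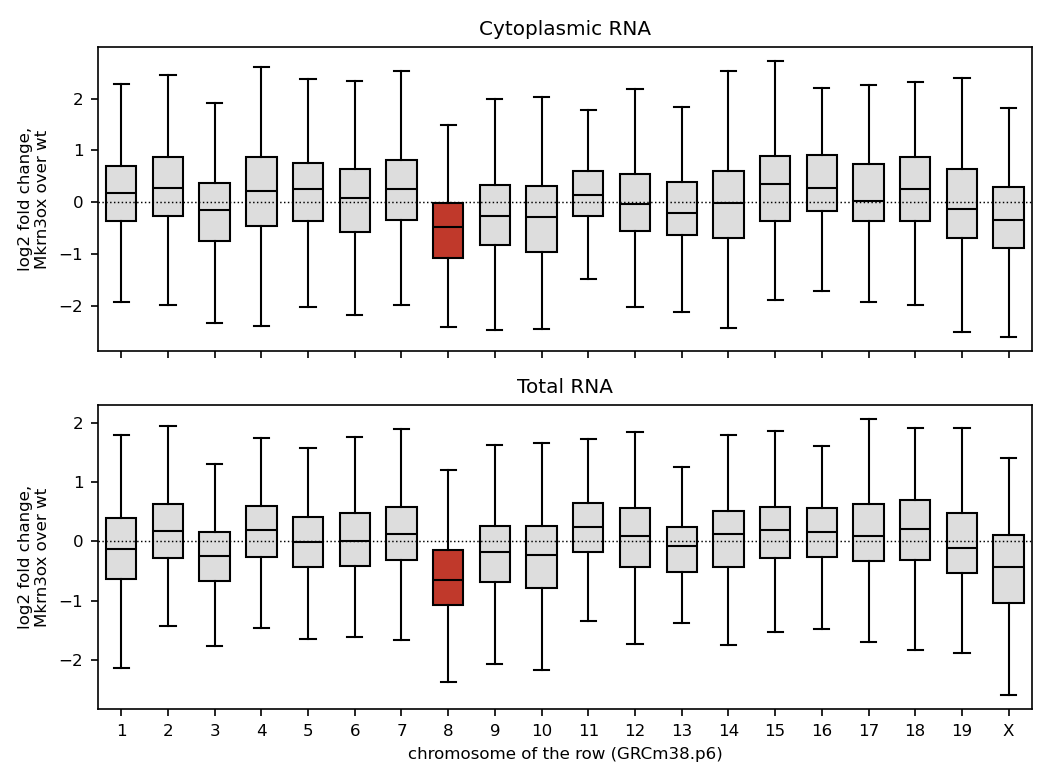
Log2 fold changes of Mkrn3ox over wt by chromosome of the row, in cytoplasmic RNA (top) and total RNA (bottom); boxes span the quartiles, black lines are medians and whiskers reach the last value within 1.5 box lengths. Chromosome 8 (red) has the lowest median in both fractions, −0.48 and −0.64.

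The 39 gene lists, chosen with earlier results of these data known, fell on both sides of the median of all rows (0.03). Among lists with at least 7 tested members, the 7 lowest medians were those of prohormone processing (−1.17), collagens, laminins and matrix (−0.71), ER and integrated stress response (−0.70), mitochondrially encoded mRNAs (−0.70), cell adhesion receptors (−0.49), immediate early genes (−0.40) and growth factors with their binding proteins (−0.35). The 5 highest were those of the nuclear-encoded respiratory chain (0.809), the ribosomal proteins of the small subunit (0.695), p53 and its targets (0.686), the ribosomal proteins of the large subunit (0.639) and the NRF2 pathway (0.637). Of the smaller lists, the 5 tested X-linked MAGE genes had a median of −0.76. In each of these lists except prohormone processing (4 of 7) only a minority of the tested members passed the test. In total RNA the medians of prohormone processing (−0.05), matrix (0.179), adhesion receptors (0.06) and mitochondrial mRNAs (0.04) were near 0 or positive. Those of the ER list (−0.40), immediate early genes (−0.27) and growth factors (−0.27) were negative there as well, and those of the ribosomal proteins (0.689 and 0.443) and of the respiratory chain (0.483) were positive there too. The difference between the fractions was tested row by row and is given at the end. Lists were described by counts and medians alone, with no test of a list.

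**Figure D3:**
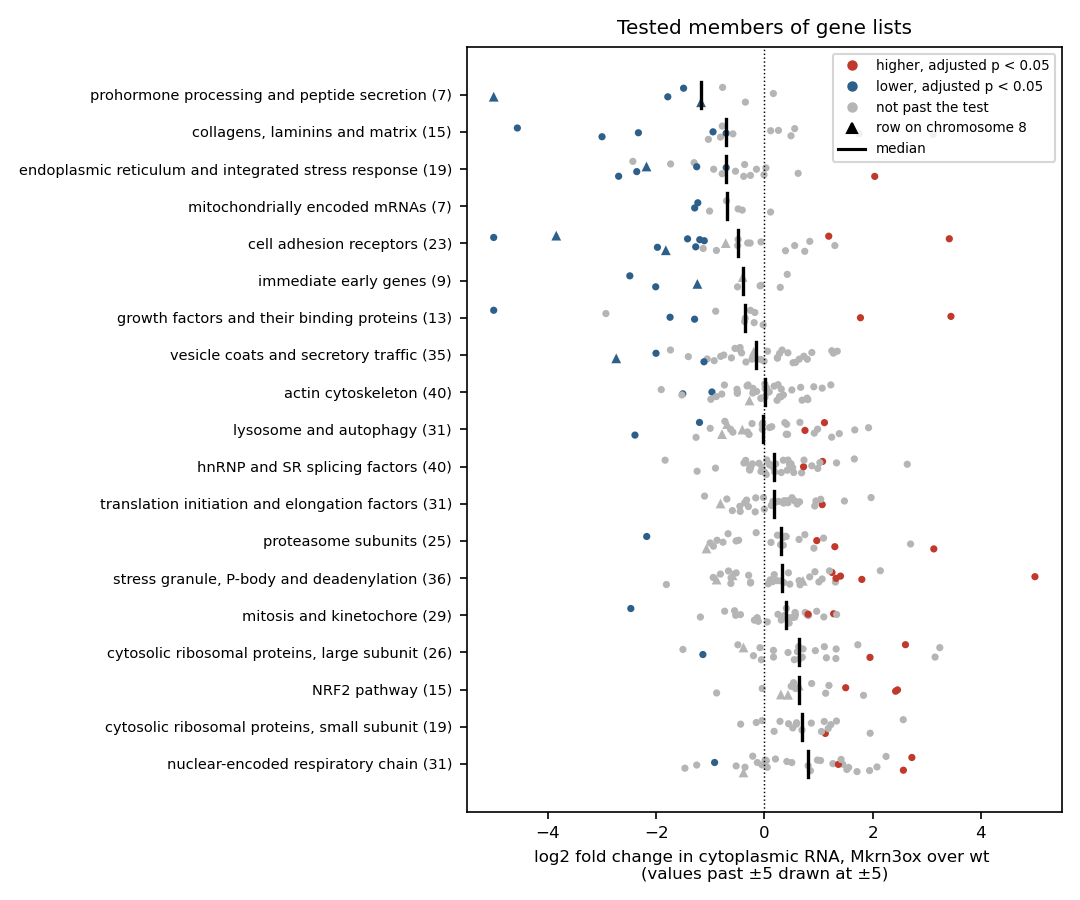
Log2 fold change of Mkrn3ox over wt in cytoplasmic RNA for each tested member of 19 gene lists, with the number tested in brackets; red and blue points passed the test, grey ones did not, triangles lie on chromosome 8 and black bars are list medians. Medians run from −1.17 for prohormone processing to 0.809 for the respiratory chain, and in every list except prohormone processing most points are grey.

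Of the genes that fold proteins in the ER or answer ER stress, several chaperone rows were lower in the Mkrn3ox cytoplasm. Of 33 listed genes of the ER and the integrated stress response 19 were tested, 5 were lower, 1 was higher and 13 did not pass the test. The row of Hyou1, an ER chaperone of the heat shock family, stood at 257, 298 and 265 CPM in the Mkrn3ox libraries, against 843, 593 and 514 CPM in the wt libraries (log2 fold change −1.25, SE 0.21, adjusted p = 0.000402, 3 libraries in each group). The groups did not overlap. Calr, the row of calreticulin, a calcium-binding chaperone of glycoproteins, had 29.9, 40.7 and 39.7 CPM in the Mkrn3ox libraries, against 142, 102 and 265 CPM in the wt libraries (log2 fold change −2.19, SE 0.405, adjusted p = 0.00102). Hsp90b1, the row of the ER member of the HSP90 chaperones (Grp94), had 17.5, 0 and 29.3 CPM in the Mkrn3ox libraries, against 77.6, 27.6 and 148 CPM in the wt libraries (log2 fold change −2.36, SE 0.708, adjusted p = 0.0355), with 1 overlapping library. Ddit3, the stress-induced factor CHOP (−0.70, adjusted p = 0.0114), was lower as well. So was Sel1l, part of the complex that sends misfolded ER proteins to the proteasome, named after its value was seen (−2.69, adjusted p = 0.0355). The row of Ddit3 overlaps Mars1 (116 CPM). In the inputs the rows of Hyou1, Calr, Hsp90b1 and Ddit3 held 1199.9, 2991, 2518 and 89.9 CPM. Their means in wt cytoplasm were 650, 170, 84.3 and 1139 CPM, so the level of these rows need not be that of the gene.

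Atf4, the transcription factor of the integrated stress response, was the 1 higher row, at 107, 122 and 87.8 CPM in the Mkrn3ox libraries, against 20.7, 38.2 and 16.4 CPM in the wt libraries (log2 fold change 2.04, SE 0.459, adjusted p = 0.00584). Atf4 activates Ddit3, and in these libraries their rows moved in opposite directions. Which gene the row of Ddit3 counts is uncertain, because Mars1 overlaps it on the opposite strand. Of the tested list members that did not pass the test, 3 are named after their values were seen: Hspa5, the chaperone BiP (−0.78, adjusted p = 0.469), Canx, the membrane chaperone calnexin (−0.38, adjusted p = 0.309), and Dnajc3, a co-chaperone (−1.73, adjusted p = 0.0503). In total RNA the same rows had changes of 0.15, 0.74 and 0.59, of which that of Canx passed the test there (adjusted p = 0.0369). Without chromosome 8, which holds Calr, the list median was −0.62. The call was lost (adjusted p in brackets) for Ddit3 without Mkrn3ox 1 (0.0778) and in 1 other fit (0.104), Hsp90b1 without Mkrn3ox 1 or 2 or wt 1 or 3 (up to 0.179) and in 3 other fits (up to 0.0825) and Sel1l without Mkrn3ox 2 or 3 or wt 2 or 3 (up to 0.13) and in 2 other fits (up to 0.0734).

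ER chaperone genes are textbook targets of the unfolded protein response through the ER stress response element, CCAAT followed after 9 bases of any kind by CCACG. Searched on both strands from 250 bases before to 50 after gene starts in RefSeq sequences of GRCm38.p6, these letters stood in 39 of 32851 promoter sequences (0.119%) and in those of 8 of the 30 list genes that had one: Calr, Canx, Creld2, Dnajc3, Hsp90b1, Hspa5, Pdia6 and Syvn1. Of the 6 tested genes among them Calr and Hsp90b1 were lower in the Mkrn3ox cytoplasm, and Canx, Dnajc3, Hspa5 and Syvn1 did not pass the test. A match is a description of the letters and shows no binding. The promoters of Calr, Hsp90b1 and Hspa5 are printed because these 3 genes show the element beside a called and an uncalled change. Sequences run 5′ to 3′ on the gene's strand, with the element in capitals.
Calr (chr8:84846882-84847181, minus strand): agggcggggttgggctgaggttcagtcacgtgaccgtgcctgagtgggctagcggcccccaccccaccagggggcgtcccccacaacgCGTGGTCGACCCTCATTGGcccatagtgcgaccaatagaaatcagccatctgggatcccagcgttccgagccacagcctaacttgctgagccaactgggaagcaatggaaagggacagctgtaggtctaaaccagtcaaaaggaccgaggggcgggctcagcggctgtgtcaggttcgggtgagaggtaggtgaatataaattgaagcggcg
Hsp90b1 (chr10:86705395-86705694, minus strand): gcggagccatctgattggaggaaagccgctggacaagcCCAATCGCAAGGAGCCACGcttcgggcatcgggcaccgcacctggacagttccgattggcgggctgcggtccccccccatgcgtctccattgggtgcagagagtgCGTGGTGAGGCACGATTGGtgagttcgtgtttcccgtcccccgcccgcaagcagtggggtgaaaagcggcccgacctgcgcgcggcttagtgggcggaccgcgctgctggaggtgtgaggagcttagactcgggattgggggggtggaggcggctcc
Hspa5 (chr2:34771840-34772139, plus strand): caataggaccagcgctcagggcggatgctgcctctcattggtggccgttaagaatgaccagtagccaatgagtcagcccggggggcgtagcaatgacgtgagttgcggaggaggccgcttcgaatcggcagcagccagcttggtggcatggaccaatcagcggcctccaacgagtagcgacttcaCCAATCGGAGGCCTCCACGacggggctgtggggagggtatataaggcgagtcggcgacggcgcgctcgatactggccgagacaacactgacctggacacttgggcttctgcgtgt

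Rows of the machinery that processes prohormones were lower too, and the row of Gnrh1 itself showed no detectable difference. Of 25 listed genes of prohormone processing 7 were tested, 4 were lower and 3 did not pass the test. Cpd, the row of a carboxypeptidase that trims peptides in the Golgi network, had 149.7, 53.4 and 92.0 CPM in the Mkrn3ox libraries, against 370.0, 325 and 323 CPM in the wt libraries. Cpe, the main carboxypeptidase of dense-core vesicles, had no count in the Mkrn3ox libraries, against 6, 22 and 12 counts in the wt libraries, at least 13.9-fold lower against a floor of 3 counts over the group. Rab3a, a vesicle GTPase, had 259, 279.9 and 255 CPM in the Mkrn3ox libraries, against 719, 591 and 476 CPM in the wt libraries, and is the neighbour of Mpv17l2 (13.8 CPM). Prcp, a carboxypeptidase of lysosomes and secretions, had 52.4, 28.0 and 62.7 CPM in the Mkrn3ox libraries, against 145, 159 and 101 CPM in the wt libraries. All 4 rows had separate groups, and Cpe and Rab3a lie on chromosome 8. The median of the 5 tested members elsewhere was −0.77. Calls did not hold (adjusted p in brackets) for Prcp without Mkrn3ox 1 or 2 or wt 1 or 2 (up to 0.112) and in 1 other fit (0.0744).

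Gnrh1, the GnRH precursor (chr14:67745181-67749440), had 159.7, 145 and 134 CPM in the Mkrn3ox libraries, against 28.5, 183 and 115 CPM in the wt libraries (log2 fold change 0.41, SE 0.444, adjusted p = 0.629). The wt libraries spread so widely, from 11 to 86 counts, that the Mkrn3ox libraries lay inside their range. Pam, the enzyme that amidates GnRH and other peptides, had 1734, 1794 and 1802 CPM in the Mkrn3ox libraries, against 1850.0, 1628 and 1269 CPM in the wt libraries, a difference that did not pass the test (0.17, adjusted p = 0.585). Of 56 listed genes of vesicle coats and secretory traffic 35 were tested and 3 were lower: Spcs3, a subunit of the signal peptidase (−2.74, adjusted p = 6.86e-07), Ssr1, a subunit of the translocon-associated complex (−1.11, adjusted p = 0.0218), and Ap3m1, a subunit of the AP-3 vesicle coat (−2.00, adjusted p = 1.31e-07). Spcs3 stood at 67.4, 96.7 and 58.5 CPM in the Mkrn3ox libraries, against 442, 557 and 479 CPM in the wt libraries. The row of Ap3m1 overlaps Vcl (1249 CPM) on the opposite strand, and the row of Vcl itself was also lower. The median of the traffic list was −0.15, −0.06 without chromosome 8 and 0.182 with library size scaling. Adjusted p exceeded 0.05 (value in brackets) for Ssr1 without Mkrn3ox 1 or wt 2 (up to 0.11) and in 1 other fit (0.116).

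Among secreted matrix proteins 5 rows were lower and the other 10 of 15 tested did not pass the test. Fn1, fibronectin (chr1:71585473-71653280), had 9.98, 12.7 and 4.18 CPM in the Mkrn3ox libraries, against 38.8, 119 and 54.7 CPM in the wt libraries (log2 fold change −3.00, SE 0.574, adjusted p = 0.00138). Lamc1, a laminin chain, had 2.49, 25.4 and 14.6 CPM in the Mkrn3ox libraries, against 72.4, 59.5 and 84.8 CPM in the wt libraries (−2.33, adjusted p = 0.0153). Nid2, nidogen-2, which links laminin to collagen, had 1, 0 and 0 counts in the Mkrn3ox libraries, against 13, 12 and 5 counts in the wt libraries, 3.20% of the wt level (95% interval 0.0785 to 19.3%), with an adjusted p of 0.0192. In these 3 rows every Mkrn3ox library lay below every wt library, at levels of few counts. Such intervals, for rows with 1 to 3 counts in a group, are exact (Clopper-Pearson) and cover counting error only. Sparc, a calcium-binding matrix protein, had 272, 298 and 337 CPM in the Mkrn3ox libraries, against 272, 629 and 850.4 CPM in the wt libraries (−0.95, adjusted p = 0.0322), and wt library 1 lay level with the Mkrn3ox libraries. Col1a2, a chain of type I collagen, had 269, 262 and 341 CPM in the Mkrn3ox libraries, against 448, 544 and 432 CPM in the wt libraries (−0.71, adjusted p = 0.0346). In the inputs the rows of Fn1, Lamc1 and Col1a2 held 9077, 879 and 155 CPM, against means of 70.8, 72.2 and 475 CPM in wt cytoplasm. The level of these rows need therefore not be that of the gene. In total RNA the median of the list was 0.179, with 1 higher and 1 lower row. Rows losing their call (adjusted p in brackets) were Lamc1 without Mkrn3ox 1 (0.0683), Nid2 without Mkrn3ox 2 or 3 or wt 1 (up to 0.0762), Sparc without Mkrn3ox 1, 2 or 3 or wt 2 or 3 (up to 0.21) and in 3 other fits (up to 0.163) and Col1a2 without Mkrn3ox 1 or 2 or wt 1 or 2 (up to 0.156) and in 4 other fits (up to 0.214).

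Rows of cell adhesion receptors gave 8 lower and 2 higher members of 23 tested. The list median was −0.49, and −0.40 without the 3 tested members on chromosome 8. Cdh11, the row of cadherin-11 on chromosome 8 (chr8:102632095-102785493), had 32.4, 66.2 and 41.8 CPM in the Mkrn3ox libraries, against 665, 682 and 669.9 CPM in the wt libraries (log2 fold change −3.84, SE 0.27, adjusted p = 3.63e-09). Itgb1, the shared beta subunit of many integrins, had 145, 234 and 196 CPM in the Mkrn3ox libraries, against 631, 589 and 815 CPM in the wt libraries (log2 fold change −1.82, SE 0.228, adjusted p = 1.34e-05). Pdpn, podoplanin, a mucin-like membrane protein (chr4:143267409-143299564), had no count in the Mkrn3ox libraries, against 102, 158 and 56 counts in the wt libraries, at least 109.6-fold lower against the floor of 3 counts over the group. Groups were separate in all 3 rows. Cadm1, an adhesion molecule of synapses, was lower as well (−1.19, adjusted p = 0.0124), as were 4 members named after their values were seen: N-cadherin Cdh2 (−1.98), the tetraspanin Cd9 (−1.11), integrin alpha-V Itgav (−1.42) and the proteoglycan Sdc2 (−1.27). The higher rows were Sdc4, another syndecan, with 1409, 1672 and 1635 CPM in the Mkrn3ox libraries, against 561, 720.3 and 785 CPM in the wt libraries (1.19, adjusted p = 0.000326), and Adgrl3, a latrophilin (3.42, adjusted p = 0.000725). The row of Adgrl3 held 0 CPM in the inputs. Past 0.05 in adjusted p (in brackets) were Cadm1 without Mkrn3ox 1 or 2 or wt 1 (up to 0.0725) and in 1 other fit (0.0696), Cdh2 without Mkrn3ox 2 or 3 or wt 1 (up to 0.0926) and in 1 other fit (0.057) and Cd9 without Mkrn3ox 2 or 3 or wt 1 or 3 (up to 0.205) and in 2 other fits (up to 0.144). Calls were also lost for Itgav without Mkrn3ox 1 or 2 or wt 1 or 2 (up to 0.148) and in 3 other fits (up to 0.127) and Sdc2 without Mkrn3ox 1, 2 or 3 or wt 1 or 2 (up to 0.178) and in 4 other fits (up to 0.128).

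Growth factors and their binding proteins moved both ways, with 3 lower and 2 higher of 13 tested rows. Igfbp5, which binds insulin-like growth factors, had 22.5, 0 and 0 CPM in the Mkrn3ox libraries, against 160.4, 236 and 342 CPM in the wt libraries (log2 fold change −5.05, SE 0.744, adjusted p = 0.000137). Sema3c, a secreted guidance cue, had 152, 139.96 and 109 CPM in the Mkrn3ox libraries, against 295, 380.3 and 301 CPM in the wt libraries (−1.29, adjusted p = 0.00277). Wnt5a, a ligand of non-canonical Wnt signalling, had 17.5, 56.0 and 58.5 CPM in the Mkrn3ox libraries, against 186, 134 and 126 CPM in the wt libraries (−1.74, adjusted p = 0.0072). In all 3 the highest Mkrn3ox library lay below the lowest wt library. Ptn, the heparin-binding growth factor pleiotrophin (chr6:36714924-36810179), went the other way, with 501, 687 and 562 CPM in the Mkrn3ox libraries, against 33.6, 55.2 and 71.1 CPM in the wt libraries (log2 fold change 3.45, SE 0.265, adjusted p = 1e-08). Gdnf, a neurotrophic factor, had 374, 456 and 284 CPM in the Mkrn3ox libraries, against 139.7, 99.9 and 84.8 CPM in the wt libraries (log2 fold change 1.78, SE 0.279, adjusted p = 0.000189). The rows of Ptn and Gdnf held 0.0191 and 0 CPM in the inputs, so the RIP table does not show either gene in this line.

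Immediate early genes, transcription factor genes that are switched on within minutes of a stimulus, gave 3 lower rows of 9 tested. Fosl2 had 74.8, 28.0 and 43.9 CPM in the Mkrn3ox libraries, against 173, 212 and 205 CPM in the wt libraries (log2 fold change −2.01, SE 0.389, adjusted p = 0.00156). Jund, on chromosome 8, had 97.3, 81.4 and 66.9 CPM in the Mkrn3ox libraries, against 189, 153 and 238 CPM in the wt libraries (−1.24, adjusted p = 0.012). Egr1, a factor that in pituitary cells drives the luteinising hormone gene in response to GnRH, had 24.9, 7.63 and 10.5 CPM in the Mkrn3ox libraries, against 67.3, 72.2 and 104 CPM in the wt libraries (−2.49, adjusted p = 0.0126). Groups did not overlap in any of the 3 rows. Of 8 tested feedback inhibitors of MAP kinase signalling only Dusp1, a phosphatase of these kinases, passed the test, with 29.9, 15.3 and 27.2 CPM in the Mkrn3ox libraries, against 80.2, 63.7 and 65.6 CPM in the wt libraries (−1.52, adjusted p = 0.0266). Without the 2 tested members on chromosome 8 the median of the immediate early list was −0.08, and with library size scaling it was −0.05. The call was lost (adjusted p in brackets) for Egr1 without Mkrn3ox 2 or 3 or wt 3 (up to 0.0578), Jund without Mkrn3ox 3 or wt 3 (up to 0.0582) and in 1 other fit (0.0553) and Dusp1 without Mkrn3ox 2 or 3 or wt 1 or 2 (up to 0.117) and in 4 other fits (up to 0.111).

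Mitochondrial proteins are encoded by both the mitochondrial and the nuclear genome. Of the 13 mRNAs of the mitochondrial genome 7 were tested, 2 were lower and 5 did not pass the test, and 6 of the 7 had a negative change. mt-Nd6 (log2 fold change −1.29, SE 0.117, adjusted p = 1.28e-07) has its values as shares of the counts above. Its counts were 32.6, 40.4 and 29.4 times those of the other mitochondrial mRNA rows in the Mkrn3ox libraries. In the wt libraries they were 59.3, 55.3 and 46.6 times those rows. The 7 tested rows had no known position, so neighbours could not be sought for them. Which RNA the row of mt-Nd6 counts is therefore uncertain. mt-Nd5, another subunit of complex I, had 317, 494 and 746 CPM in the Mkrn3ox libraries, against 986, 1359.9 and 1312 CPM in the wt libraries (log2 fold change −1.23, SE 0.279, adjusted p = 0.00605). Of 77 listed nuclear genes of the respiratory chain and ATP synthase 31 were tested, 3 were higher, 1 was lower and 27 did not pass the test. Atp5k, a subunit of ATP synthase, had 187, 204 and 148 CPM in the Mkrn3ox libraries, against 10.3, 38.2 and 41.0 CPM in the wt libraries (log2 fold change 2.57, SE 0.394, adjusted p = 0.000142). Atp5o, another subunit of it and a neighbour of Itsn1 (166 CPM), had 185, 196 and 140.1 CPM in the Mkrn3ox libraries, against 33.6, 87.1 and 79.3 CPM in the wt libraries. Both had separate groups. Cox6c, a subunit of cytochrome oxidase beside Vps13b (142 CPM), had 19.96, 63.6 and 433 CPM in the Mkrn3ox libraries, against 7.76, 31.9 and 38.3 CPM in the wt libraries (2.73, adjusted p = 0.0215), and its high mean rested on Mkrn3ox library 3, without which the change was 0.66. Ndufb2, a complex I subunit near Braf (112 CPM), was lower (−0.92, adjusted p = 0.0282). Of the 31 tested rows 10 have a more abundant neighbour. Calls did not hold (adjusted p in brackets) for Atp5o without Mkrn3ox 1 or 2 or wt 1 (up to 0.104), Cox6c without Mkrn3ox 3 or wt 1 or 2 (up to 0.635) and Ndufb2 without Mkrn3ox 1, 2 or 3 or wt 1 or 3 (up to 0.116) and in 1 other fit (0.122).

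Ribosomal protein rows were mostly above 0 and mostly did not pass the test. Of 26 tested rows of the large subunit 19 had a positive change, 2 were higher and 1 was lower, and of 19 of the small subunit 16 had a positive change and 1 was higher. Rplp2, a protein of the ribosomal stalk, had 212, 171 and 136 CPM in the Mkrn3ox libraries, against 36.2, 70.1 and 24.6 CPM in the wt libraries (log2 fold change 1.95, SE 0.391, adjusted p = 0.00213). Rpl11 had 92.3, 28.0 and 35.5 CPM in the Mkrn3ox libraries, against 5.17, 6.37 and 13.7 CPM in the wt libraries (2.61, adjusted p = 0.0336). Rps21 had 102, 107 and 121 CPM in the Mkrn3ox libraries, against 64.7, 40.4 and 46.5 CPM in the wt libraries (1.13, adjusted p = 0.0479). The groups were separate in each of the 3 rows. Rpl32, which overlaps Cand2 (89.9 CPM), was lower (−1.13, adjusted p = 0.0128). Of 31 tested translation factors only Eef1b2, an exchange factor of elongation factor 1, passed the test (1.07, adjusted p = 0.0173), with 222, 344 and 217 CPM in the Mkrn3ox libraries, against 124, 91.4 and 159 CPM in the wt libraries. Pabpc1, the cytoplasmic poly(A)-binding protein, had 205, 117 and 102 CPM in the Mkrn3ox libraries, against 80.2, 129.6 and 65.6 CPM in the wt libraries and did not pass the test (0.61, adjusted p = 0.341). Adjusted p exceeded 0.05 (value in brackets) for Rpl11 without Mkrn3ox 1 or 3 or wt 1 or 2 (up to 0.285) and in 3 other fits (up to 0.0817), Rps21 without any 1 of the 6 (up to 0.185) and in 4 other fits (up to 0.202), Rpl32 without Mkrn3ox 1 or wt 2 (up to 0.0714) and in 1 other fit (0.0545) and Eef1b2 without Mkrn3ox 2 or wt 1 or 2 (up to 0.125).

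The called rows of the oxidative stress response were all higher in the Mkrn3ox cytoplasm. Of 15 tested genes of the NRF2 pathway, which meets oxidants with antioxidant enzymes, 3 were higher, 12 did not pass the test, and 13 had a positive change. The list median was 0.637, and 1.004 without the 3 tested members on chromosome 8. Ftl1, the light chain of the iron store ferritin, had 112, 379 and 186 CPM in the Mkrn3ox libraries, against 23.3, 29.7 and 73.8 CPM in the wt libraries (log2 fold change 2.43, SE 0.566, adjusted p = 0.00737). Txnrd1, thioredoxin reductase, had 107, 148 and 87.8 CPM in the Mkrn3ox libraries, against 41.4, 40.4 and 38.3 CPM in the wt libraries (log2 fold change 1.503, SE 0.39, adjusted p = 0.0151). Srxn1, sulfiredoxin, which repairs oxidised peroxiredoxins, had 62.4, 112 and 89.9 CPM in the Mkrn3ox libraries, against 15.5, 27.6 and 2.73 CPM in the wt libraries (2.46, adjusted p = 0.033). The lowest Mkrn3ox library was above the highest wt library in each. Of 19 tested heat shock chaperones Hsph1, an exchange factor of HSP70, passed the test (1.63, adjusted p = 0.036). Mt2, a metal-binding metallothionein encoded on chromosome 8, was higher too, with 412, 48.4 and 107 CPM in the Mkrn3ox libraries, against 12.9, 12.7 and 52.0 CPM in the wt libraries (2.89, adjusted p = 0.00779), where 1 Mkrn3ox library lay below the highest wt library and the change was 1.603 without Mkrn3ox library 1. Rows losing their call (adjusted p in brackets) were Ftl1 without Mkrn3ox 2 (0.0693), Txnrd1 without Mkrn3ox 2 or wt 2 or 3 (up to 0.0862), Srxn1 without Mkrn3ox 2 or 3 or wt 1 or 3 (up to 0.117) and in 1 other fit (0.0532), Hsph1 without Mkrn3ox 1 or 2 or wt 1 or 2 (up to 0.159) and in 1 other fit (0.0584) and Mt2 without Mkrn3ox 1 (0.151).

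Ubiquitin genes, the class to which makorins belong by their RING domain, gave 3 higher rows of 32 tested. Uchl1, a ubiquitin hydrolase abundant in neurons (chr5:66676121-66687234), had 209.5, 148 and 163 CPM in the Mkrn3ox libraries, against 2.59, 0 and 8.20 CPM in the wt libraries (log2 fold change 5.60, SE 0.686, adjusted p = 1.05e-05). Usp22, a deubiquitinase of histones, had 264, 221 and 176 CPM in the Mkrn3ox libraries, against 56.9, 12.7 and 43.8 CPM in the wt libraries (2.56, adjusted p = 0.00703). Usp7, which removes ubiquitin from the p53 ligase Mdm2, had 79.8, 33.1 and 43.9 CPM in the Mkrn3ox libraries, against 10.3, 12.7 and 2.73 CPM in the wt libraries (2.53, adjusted p = 0.0241). The 3 called members all encode enzymes that remove ubiquitin. The share of such enzymes among the 32 tested rows is not given here, so no pattern can be read from this. The row of Uchl1 held 3.72 CPM in the inputs. Of 25 tested proteasome subunits Psma7 (1.30, adjusted p = 0.0174), Psmb1 (0.97, adjusted p = 0.0332) and Psmc4 (3.13, adjusted p = 0.045) were higher and Psmb2 (−2.17, adjusted p = 0.0287) was lower. Of the makorin family only Mkrn2 was tested, with 125, 102 and 144 CPM in the Mkrn3ox libraries, against 129, 127 and 137 CPM in the wt libraries (−0.08, adjusted p = 0.903). Past 0.05 in adjusted p (in brackets) were Usp7 without Mkrn3ox 1 or wt 1 or 3 (up to 0.12), Psma7 without Mkrn3ox 1 or wt 1 or 2 (up to 0.166), Psmb1 without Mkrn3ox 1, 2 or 3 or wt 2 or 3 (up to 0.169) and in 2 other fits (up to 0.06), Psmc4 without Mkrn3ox 1 or 3 or wt 1, 2 or 3 (up to 0.27) and in 2 other fits (up to 0.0843) and Psmb2 without Mkrn3ox 1 or 2 or wt 1 or 2 (up to 0.116) and in 3 other fits (up to 0.0982).

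Rows of RNA-binding proteins of stress granules and of the deadenylation machinery gave 5 higher members of 36 tested. Ago2, the slicer of the microRNA pathway, had 127, 176 and 151 CPM in the Mkrn3ox libraries, against 44.0, 31.9 and 54.7 CPM in the wt libraries (log2 fold change 1.80, SE 0.343, adjusted p = 0.00132). Ybx1, which packages mRNA, had 317, 275 and 362 CPM in the Mkrn3ox libraries, against 129, 185 and 62.9 CPM in the wt libraries (log2 fold change 1.32, SE 0.317, adjusted p = 0.00881). Caprin1, a partner of the stress granule protein G3bp1, had 119.7, 178 and 182 CPM in the Mkrn3ox libraries, against 44.0, 70.1 and 87.5 CPM in the wt libraries (1.25, adjusted p = 0.0258). In each of these 3 rows all Mkrn3ox libraries exceeded all wt libraries. Igf2bp3, which stabilises mRNAs, had 23, 6 and 0 counts in the Mkrn3ox libraries, against 0, 0 and 0 counts in the wt libraries (at least 9.29-fold higher against the floor of 3 counts, adjusted p = 0.033), so that the groups met at 0, and it overlaps Malsu1 (22.1 CPM). Cnot6l, a deadenylase, was named after its value was seen (1.41, adjusted p = 0.0417). In total RNA the median of this list was −0.15, against 0.335 in the cytoplasm, and no single row of it passed the test of the difference. Of 40 tested hnRNP and SR proteins, which bind pre-mRNA, Hnrnpa2b1 (1.08, adjusted p = 0.013) and Hnrnpd, an AU-rich element binder (0.72, adjusted p = 0.042), were higher. That count lies near the share of all tested rows that were higher, 4.31%. Without Mkrn3ox library 1 the bound of Igf2bp3 was 2.81-fold. In total RNA the row of Igf2bp3 held 2, 13 and 4 counts in Mkrn3ox, against 6, 5 and 19 counts in wt. That difference did not pass edgeR's test (−0.39, adjusted p = 0.897). The call was lost (adjusted p in brackets) for Caprin1 without Mkrn3ox 2 or 3 or wt 1 or 2 (up to 0.126), Igf2bp3 without Mkrn3ox 1 or wt 1, 2 or 3 (up to 0.203) and in 1 other fit (0.0713) and Cnot6l without Mkrn3ox 1 or 2 or wt 1 or 2 (up to 0.152) and in 3 other fits (up to 0.0835). The same applied to Hnrnpa2b1 without Mkrn3ox 3 or wt 1 or 2 (up to 0.0773) and Hnrnpd without Mkrn3ox 1 or 2 or wt 1, 2 or 3 (up to 0.253) and in 2 other fits (up to 0.0927).

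**Figure D4:**
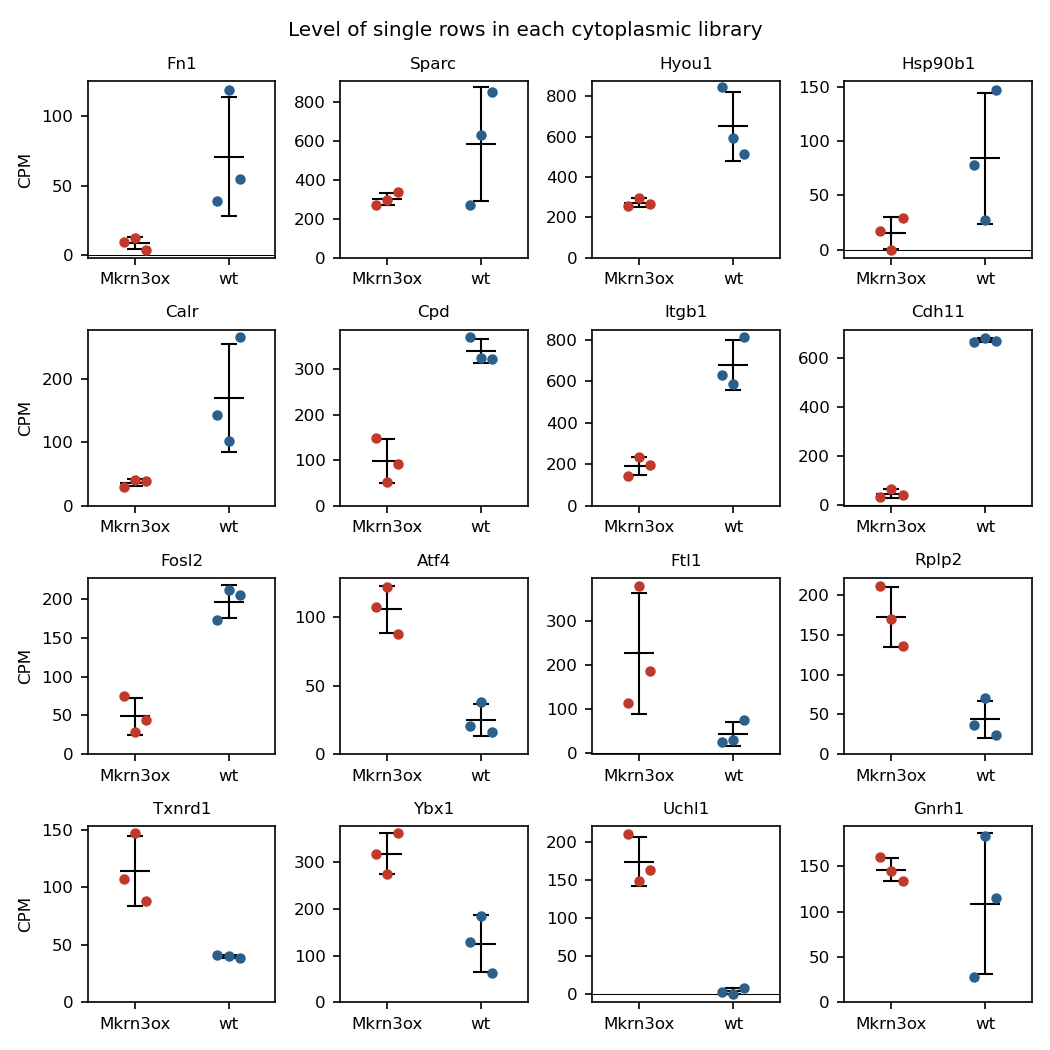
Level in CPM of 16 rows in each of the 3 Mkrn3ox (red) and 3 wt (blue) cytoplasmic libraries, with the mean and SD in black. Fn1 to Fosl2 are lower in Mkrn3ox, Atf4 to Uchl1 are higher, and the Mkrn3ox libraries of Gnrh1 lie within the range of the wt libraries; Sparc and Hsp90b1 overlap by 1 library.

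Cell cycle and DNA repair rows changed in few members, where 4.31% of all tested rows were higher and 6.14% lower. Of 29 tested genes of mitosis and the kinetochore, Kif20a, a kinesin of cytokinesis, was higher at 2664, 2204 and 2161 CPM in the Mkrn3ox libraries, against 1332, 1368 and 1309.8 CPM in the wt libraries (log2 fold change 0.81, SE 0.179, adjusted p = 0.00501). Tpx2, which builds the spindle, was higher (1.28, adjusted p = 0.0287) and Anln, a scaffold of the cleavage furrow, lower (−2.47, adjusted p = 0.0367). Of 20 tested replication genes E2f1, the transcription factor that starts S phase, passed the test, with 44.9, 104 and 52.3 CPM in the Mkrn3ox libraries, against 7.76, 8.50 and 5.47 CPM in the wt libraries (log2 fold change 3.15, SE 0.717, adjusted p = 0.0061). Of 17 tested repair genes 2 were higher. Ercc2, a helicase of excision repair beside Ppp1r13l (30.04 CPM), had 127, 168 and 128 CPM in the Mkrn3ox libraries, against 0, 0 and 5.47 CPM in the wt libraries, 85.5-fold the wt level (95% interval 23.3 to 712), with an adjusted p of 5.71e-06. Chek2, a checkpoint kinase, had 117, 15.3 and 20.9 CPM in the Mkrn3ox libraries, against 0, 0 and 8.20 CPM in the wt libraries, 20.2-fold the wt level (95% interval 6.60 to 100.5), with an adjusted p of 0.0276, and most of its mean came from Mkrn3ox library 1. Without that library it stood at 7.48-fold the wt level (95% interval 2.14 to 40.1). Bax, the cell death effector, passed the test among 9 p53 targets (1.35, adjusted p = 0.0124) and lies beside Ftl1 (161 CPM), the ferritin row given above. Calls did not hold (adjusted p in brackets) for Tpx2 without Mkrn3ox 1 or 2 or wt 1 or 3 (up to 0.127) and in 1 other fit (0.0583), Anln without Mkrn3ox 1, 2 or 3 or wt 2 or 3 (up to 0.168) and in 2 other fits (up to 0.071), Chek2 without Mkrn3ox 1 or wt 1 or 2 (up to 0.333) and Bax without Mkrn3ox 1 or 3 or wt 1 or 3 (up to 0.0654).

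Rows that mark neurons and the GnRH lineage did not move as a group. Of 18 tested genes of the neuronal cytoskeleton and synaptic vesicles, Uchl1 and Basp1, a growth cone protein (968, 814 and 1077 CPM in the Mkrn3ox libraries, against 616, 406 and 257 CPM in the wt libraries, 1.16, adjusted p = 0.00297), were higher and Rab3a was lower. Of 15 tested GnRH neuron factors, Otx2, which activates the Gnrh1 promoter, was lower at 29.9, 33.1 and 31.4 CPM in the Mkrn3ox libraries, against 127, 121 and 90.2 CPM in the wt libraries (−1.84, adjusted p = 0.0157). Nfib, of the nuclear factor I family, was higher (1.08, adjusted p = 0.0385). The median of the GnRH neuron factors was −0.05, and 0.180 without chromosome 8. Imprinted genes, the class of Mkrn3 itself, gave 1 higher and 1 lower row of 9. Peg10, a paternally expressed gene of retroviral origin, had 379, 372 and 253 CPM in the Mkrn3ox libraries, against 54.3, 117 and 87.5 CPM in the wt libraries (log2 fold change 1.94, SE 0.321, adjusted p = 0.000331). Plagl1, a paternally expressed zinc-finger factor, had 0, 0 and 1 counts in the Mkrn3ox libraries, against 10, 21 and 138 counts in the wt libraries, 0.569% of the wt level (95% interval 0.0143 to 3.21%), with an adjusted p of 0.000331. Most of the wt counts of Plagl1 came from wt library 3, and without it Mkrn3ox stood at 2.17% of the wt level (95% interval 0.0533 to 13.0%). Of 5 tested X-linked MAGE genes, which encode partners of ubiquitin ligases, Magea9 had 0, 1 and 0 counts in the Mkrn3ox libraries, against 42, 49 and 48 counts in the wt libraries, 0.691% of the wt level (95% interval 0.0174 to 3.92%). Magea8 had 20, 3 and 52 counts in the Mkrn3ox libraries, against 0, 0 and 0 counts in the wt libraries, at least 24.0-fold higher against the floor of 3 counts, and at least 11.8-fold without Mkrn3ox library 3. Adjusted p exceeded 0.05 (value in brackets) for Otx2 without Mkrn3ox 1 or wt 1 or 2 (up to 0.0551) and in 1 other fit (0.0529) and Nfib without Mkrn3ox 1 or 2 or wt 2 or 3 (up to 0.169) and in 1 other fit (0.0586).

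Other lists changed in single members, against 4.31% higher and 6.14% lower among all tested rows. Of 31 tested genes of lysosomes and autophagy, 2 were higher and 2 lower. The median of this list was −0.03, and 0.117 without chromosome 8. Ctsz, cathepsin Z (0.75, adjusted p = 0.0105), was among the higher rows, and Lamp2, a membrane protein of the lysosome (−1.20, adjusted p = 0.000167), and Atp6ap2, an accessory protein of its proton pump (−2.39, adjusted p = 0.0221), were lower. Lamp2 had 469, 555 and 667 CPM in the Mkrn3ox libraries, against 1206, 1364 and 1312 CPM in the wt libraries. Of 40 tested genes of the actin cytoskeleton, Vcl, vinculin (−1.51, adjusted p = 0.00649), and Msn, moesin (−0.97, adjusted p = 0.0463), which tie actin to the membrane, were lower. Of 14 genes of cholesterol synthesis the row of Fdft1, squalene synthase, was lower (−1.09, adjusted p = 0.00277) and overlaps Ctsb (421 CPM). Of 7 nuclear-retained RNAs the row of Tsix was lower, with 6, 3 and 4 counts in the Mkrn3ox libraries, against 52, 33 and 44 counts in the wt libraries. Malat1 (0.13, adjusted p = 0.948) and Xist (−0.01, adjusted p = 0.997) did not pass the test. Glycolysis, aminoacyl-tRNA synthetases, snoRNA hosts, interferon genes, makorins with their reported targets and astrocyte with oligodendrocyte markers had 0 called rows of 47 tested by edgeR, 6 with an unadjusted p under 0.05 and 2 called by DESeq2. No tested row belonged to the list of small structural RNAs. Rows losing their call (adjusted p in brackets) were Ctsz without wt 2 or 3 (up to 0.0582), Atp6ap2 without Mkrn3ox 3 or wt 3 (up to 0.231) and in 4 other fits (up to 0.16) and Msn without any 1 of the 6 (up to 0.198) and in 6 other fits (up to 0.211).

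Many defining markers of other cell types held no count in either line. Of 18 markers of astrocytes and oligodendrocytes 10 held no count in any of the 6 libraries, among them Gfap, Aqp4, Olig1, Olig2, Sox10 and Mog, and the list summed to 77.3 to 125 CPM in the Mkrn3ox libraries, against 72.4 to 106 CPM in the wt libraries. Of 21 markers of fibroblasts, endothelium and immune cells 12 held no count, and the list summed to 718 to 799 CPM in the Mkrn3ox libraries, against 849 to 909 CPM in the wt libraries, so that every Mkrn3ox library lay below every wt library. Among its 5 tested rows Col1a2 and Acta2, smooth muscle actin (−2.50, adjusted p = 0.0499), were lower and Cd28, a receptor of T cells (3.95, adjusted p = 0.00244), was higher. The nuclear-retained RNAs summed to 92.3 to 137 CPM in the Mkrn3ox libraries, against 127 to 186 CPM in the wt libraries, so the ranges overlapped. Their part in the results was not tested. Past 0.05 in adjusted p (in brackets) were Acta2 without Mkrn3ox 1 or 3 or wt 2 or 3 (up to 0.158) and in 3 other fits (up to 0.101).

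The largest changes, among rows with no more abundant opposite-strand neighbour found and with a mean of at least 20 counts, lay as follows. Rows without a known strand or position, for which none could be sought, are among them. On the lower side, beside Pdpn, Igfbp5, Plagl1 and Magea9, stood Med12l, a Mediator subunit, with 0, 2.54 and 0 CPM in the Mkrn3ox libraries, against 261, 236 and 246 CPM in the wt libraries, 0.318% of the wt level (95% interval 0.00803 to 1.79%). Pde6h, an inhibitory subunit of the cone phosphodiesterase, had 2.49, 17.8 and 2.09 CPM in the Mkrn3ox libraries, against 644, 788 and 558 CPM in the wt libraries. Plppr4, a membrane protein of neurons related to lipid phosphatases, had 17.5, 10.2 and 4.18 CPM in the Mkrn3ox libraries, against 497, 516 and 446 CPM in the wt libraries. Every wt library lay far above every Mkrn3ox library in these rows. The same held for Rtraf, an RNA-binding partner of polymerase II (log2 fold change −6.62), Gask1b, a Golgi protein (1.05% of the wt level, 95% interval 0.126 to 3.85%), Parm1, a mucin-like membrane protein (2.34% of the wt level, 95% interval 0.477 to 7.01%), and the ephrin Efnb2 (−4.55). Adjusted p ran from 2.6e-09 for Pde6h to 7.88e-05 for Parm1. Rtraf overlaps Nid2 (434 CPM), of unknown strand here. In total RNA these 7 rows had changes from −7.45 for Gask1b to −1.67 for Efnb2, all past the test there.

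On the higher side, beside Uchl1, Ercc2, Ptn and Mt2, stood Arl15, a small GTPase, with 359, 201 and 378 CPM in the Mkrn3ox libraries, against 33.6, 36.1 and 27.3 CPM in the wt libraries (3.26, adjusted p = 5.74e-05). Shmt2, the mitochondrial serine hydroxymethyltransferase, had 57.4, 104 and 117 CPM in the Mkrn3ox libraries, against 0, 17.0 and 16.4 CPM in the wt libraries (3.02, adjusted p = 0.0166). Zfhx4, a homeobox and zinc-finger factor, had 115, 153 and 89.9 CPM in the Mkrn3ox libraries, against 2.59, 0 and 41.0 CPM in the wt libraries (3.10, adjusted p = 0.00625). Of these 3 rows only that of Shmt2 held more than 10 CPM in the inputs (132 CPM). The other 5 were Tcte1 (3.26), a gene of ciliary dynein regulation beside Aars2 (13.4 CPM), and 4 rows named only by clone or model: Gm45133 (3.76), Gm4524 (4.00), Gm26716 (3.10) and G730003C15Rik (3.90). These 4 rows had no known position, so neighbours could not be sought for them. Tcte1, Gm45133, Gm4524 and Gm26716 averaged 965, 1146, 871 and 942 CPM in the Mkrn3ox libraries, against 99.9, 84.8, 53.6 and 111 CPM in the wt libraries, and between 0 and 3.86 CPM in the inputs. They were thus among the more abundant rows of the Mkrn3ox cytoplasm while hardly counted in the RIP table. The call was lost (adjusted p in brackets) for Shmt2 without Mkrn3ox 3 or wt 1 (up to 0.0599) and Zfhx4 in 1 other fit (0.072).

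The most abundant called rows mostly lie against a more abundant gene, so which gene they count is uncertain. Grtp1, near Lamp1 (1030.2 CPM), a lysosomal membrane protein, took 3.40 to 3.69% of the counts of the Mkrn3ox libraries, against 8.35 to 8.89% of the wt libraries (log2 fold change −1.64, SE 0.118, adjusted p = 3.63e-09). Lower as well were Lyl1, which overlaps Nfix (228 CPM), a nuclear factor I gene (−1.12), Myo1h, which overlaps Kctd10 (257 CPM) (−0.90), and Snx22, which overlaps Ppib (197 CPM), an ER cyclophilin (−0.89). Stab1 (−0.69) lies beside Nisch (662 CPM), Esrra (−0.60) beside Prdx5 (88.6 CPM), and mt-Te (−0.52), the mitochondrial tRNA for glutamate, next to mt-Nd6. Snx22 had 2070.5, 2334 and 2099 CPM in the Mkrn3ox libraries, against 4673, 3729 and 3612 CPM in the wt libraries, and 0.153 CPM in the inputs. Higher among the abundant rows were Pip4p1, a lipid phosphatase with no such neighbour (3283, 3217 and 3942 CPM in the Mkrn3ox libraries, against 1283, 1122 and 1452 CPM in the wt libraries, 1.44, adjusted p = 8.69e-06), Kif20a, and 5 with one: Cops6 with Mcm7 (337 CPM), Cdip1 with Hmox2 (109.9 CPM), Mms19 with Zdhhc16 (45.2 CPM), Wdr5b with Kpna1 (149.96 CPM) and Stx18 with Nsg1 (99.98 CPM). Their changes were between 0.54 (Cops6) and 0.79 (Mms19 and Wdr5b). Calls did not hold (adjusted p in brackets) for Cops6 without Mkrn3ox 2 or wt 2 (up to 0.056), Cdip1 without Mkrn3ox 1, 2 or 3 or wt 2 or 3 (up to 0.103), Stx18 without Mkrn3ox 2 or 3 or wt 1, 2 or 3 (up to 0.0678), Esrra without Mkrn3ox 1, 2 or 3 or wt 1 or 2 (up to 0.245) and in 3 other fits (up to 0.311), Stab1 in 1 other fit (0.0672) and mt-Te without Mkrn3ox 1 or 3 or wt 1 or 2 (up to 0.184) and in 1 other fit (0.406).

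Among called rows with a more abundant gene on the opposite strand, the largest falls were those of Tmem252, which overlaps Pgm5 (11.9 CPM) and stood at 0.788% of the wt level (95% interval 0.0198 to 4.47%), Focad, which overlaps Hacd4 (88.5 CPM) (−3.29), Dhrs3, which overlaps Vps13d (157 CPM) (−2.25), Ctu2, which overlaps Piezo1 (237 CPM) (−2.13), Ap3m1, and Ctns, beside Tax1bp3 (38.4 CPM) (−1.93). Ctu2 had 82.3, 99.2 and 73.2 CPM in the Mkrn3ox libraries, against 386, 285 and 446 CPM in the wt libraries. The largest rises were those of Mettl21a, beside Creb1 (69.8 CPM) (2.64), Tstd2, which overlaps Ncbp1 (144 CPM) (2.49), Lmntd2, which overlaps Rassf7 (28.5 CPM) (1.85), Vash2, beside Angel2 (93.5 CPM) (1.65), Psd, near Nfkb2 (114 CPM) (1.64), and 1110002L01Rik, beside Asxl2 (116 CPM) (1.58). Psd had 337, 349 and 364 CPM in the Mkrn3ox libraries, against 75.03, 138 and 123 CPM in the wt libraries. Adjusted p exceeded 0.05 (value in brackets) for Ctns without Mkrn3ox 3 (0.0535), Lmntd2 without Mkrn3ox 1 or 3 or wt 2 or 3 (up to 0.104), Vash2 without Mkrn3ox 1 or 2 or wt 2 or 3 (up to 0.156) and in 1 other fit (0.0539) and 1110002L01Rik without wt 2 (0.058). At least 10 CPM in the inputs and no more abundant gene within 5 kb, a choice made after the data were seen, held for 3316 rows. Of these, 120 were higher and 165 lower, against 217 and 309 of all 5033 tested rows. Of the 4691 rows of known position without the 246 of chromosome 8, 198 were higher and 231 lower.

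Whether an effect belonged to the cytoplasm was tested as the Mkrn3ox effect in the cytoplasm minus that in total RNA. Both contrasts come from the same lines and the same fit, and total RNA contains the cytoplasmic RNA. Of 5033 rows 11 (0.219%) differed. Cdh11 fell further in the cytoplasm than in total RNA, where it had 185, 142 and 113 CPM in the Mkrn3ox libraries, against 456, 459.6 and 512 CPM in the wt libraries (difference −2.14, adjusted p = 0.00434). Ap3m1, lower in the cytoplasm, did not pass the test in total RNA, with 1570.0, 1455 and 1463 CPM in Mkrn3ox total RNA, against 2056, 1252 and 1570.4 CPM in wt total RNA (difference −1.88, adjusted p = 0.000497). Ptn had 556, 661 and 614 CPM in Mkrn3ox total RNA, against 3.60, 3.29 and 5.36 CPM in wt total RNA (difference −3.66, adjusted p = 0.000497), so its rise was larger there than in the cytoplasm. Pam had 2943, 2876 and 2732 CPM in Mkrn3ox total RNA, against 1005, 1149.7 and 1387 CPM in wt total RNA (difference −1.10, adjusted p = 0.0367), a rise that the cytoplasm did not show. For most rows named above the difference did not pass the test. Among the ER and secretory rows it was −0.78, adjusted p = 0.346 for Hyou1, −1.74, adjusted p = 0.0993 for Cpd, −1.62, adjusted p = 0.271 for Calr, −1.88, adjusted p = 0.363 for Fn1 and −1.66, adjusted p = 0.0588 for Sema3c. Egr1 (−4.24, adjusted p = 0.0547), Ago2 (2.20, adjusted p = 0.0511) and Magea8 (7.72, adjusted p = 0.0594) were close to the threshold. Changes of these rows can therefore not be called particular to the cytoplasm.

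**Figure D5:**
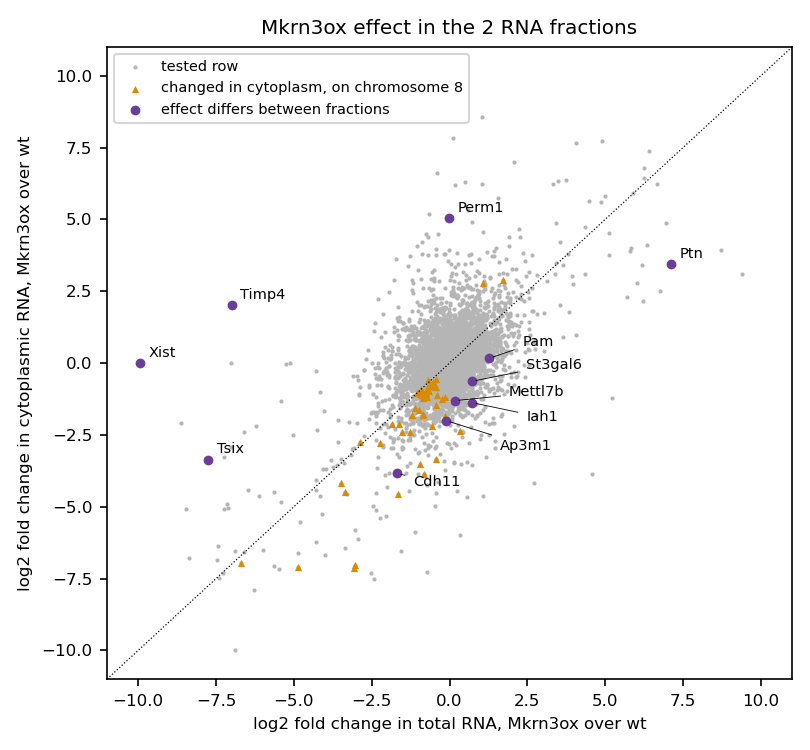
Log2 fold change of Mkrn3ox over wt in cytoplasmic RNA (vertical) against total RNA (horizontal) for 5033 rows; purple points are the 11 rows whose effect differed between the fractions, orange triangles are rows of chromosome 8 that passed the test in the cytoplasm, and the dotted line marks equal effects. Ap3m1 and Cdh11 lie below the line with lower cytoplasmic values, and Ptn lies below it with a larger rise in total RNA.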

How the data were processed

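RNA of 3 Mkrn3ox and 3 wt cytoplasmic libraries, 3 total RNA libraries of each line and 6 RIP inputs was used. The deposited values are raw counts per gene, which the authors made, per the submitters' processing notes, with cutadapt, STAR and HTSeq on mm10; versions, annotation, strand setting and handling of molecular identifiers were not given in the sources used here. Libraries were prepared with CEL-seq2, per the labels' protocols, so counts come from 3′ ends, and the depth of 374386 to 582256 counts per cytoplasmic library limits rows of few counts.

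Counts of the 12 fractionation libraries were fitted with edgeR 4.0.16 (R 4.3.3): TMM scaling, filterByExpr by group, 4 groups of 3 libraries, the quasi-likelihood F test (glmQLFit, glmQLFTest) for Mkrn3ox over wt in each fraction and for the difference between fractions, and Benjamini-Hochberg adjustment over 5033 rows with a call at 0.05. The fit was tested on simulated counts before use. DESeq2 1.42.0, other scalings and filters, a fit of the cytoplasm alone and leave-outs were alternatives. No 2 libraries agreed within sampling noise (chi-square per degree of freedom 4.69 to 8.25 between libraries of a group). Gene positions came from RefSeq on GRCm38.p6, the assembly of mm10, which placed 4691 rows and gave a strand for 3788. A more abundant gene had at least 1 CPM in the inputs and more than the row. Rows without a position, or without a strand where the opposite strand was asked for, count as having no such gene.

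Named were a preset list of 16 genes where tested, up to 4 called members of each list in each direction by smallest adjusted p, the 12 largest changes in each direction among called rows averaging 20 counts or more without a more abundant opposite-strand neighbour, 6 with one, the 8 most abundant called rows in each direction and 6 rows that differed between fractions. Some items that this rule picked are not reported here. Other genes were named after their values were seen, as the text says. The members, the 39 lists and the tests were chosen with earlier results of these data known. Level ratios of rows at 0 in a group are bounds against 3 counts over the group. Figures were drawn with Python 3.11.15 and matplotlib 3.10.9.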

Additional observations from a re-analysis of the deposited data

Results flagged for a closer look

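The effect of Mkrn3ox differed between the cytoplasm and total RNA in 11 rows, by the test of the difference itself in edgeR's quasi-likelihood fit. The differences (log2, cytoplasm minus total) were −3.66 for Ptn, −1.88 for Ap3m1, −2.14 for Cdh11 and −1.10 for Pam, whose levels in both fractions are given above.

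For Xist, the RNA that silences an X chromosome, and Tsix, its antisense partner, the differences were 9.93 and 4.39. Xist held 0, 0 and 0 counts in the 3 Mkrn3ox total RNA libraries, against 139, 159 and 159 counts in the 3 wt total RNA libraries, while the cytoplasmic libraries held 2, 4 and 0 counts in Mkrn3ox, against 1, 4 and 1 counts in wt. Tsix held 3, 15 and 5 counts in Mkrn3ox total RNA, against 1623, 1833 and 2266 counts in wt total RNA, and 6, 3 and 4 counts in Mkrn3ox cytoplasm, against 52, 33 and 44 counts in wt cytoplasm. In the inputs the ranking of these 2 rows was the opposite, with 60.5 CPM for Xist and 0.193 CPM for Tsix. With a group at 0, the fitted difference of Xist is no bound of its size.

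Timp4, an inhibitor of matrix proteases within the gene Syn2, differed by 9.01: it held 0, 0 and 1 counts in Mkrn3ox total RNA, against 82, 52 and 65 counts in wt total RNA, and 5, 4 and 0 counts in Mkrn3ox cytoplasm, against 1, 1 and 0 counts in wt cytoplasm. Perm1 differed by 5.05: it held 12, 16 and 16 counts in Mkrn3ox cytoplasm, against 0, 1 and 0 counts in wt cytoplasm, 42.3-fold the wt level (95% interval 7.205 to 1708), and 19, 40 and 32 counts in Mkrn3ox total RNA, against 30, 23 and 52 counts in wt total RNA. Mettl7b, Iah1 and St3gal6 differed by −1.48, −2.10 and −1.35, with cytoplasmic changes of −1.31, −1.38 and −0.64 and total RNA changes of 0.17, 0.72 and 0.71. These 5 rows lie on or near a gene that was more abundant in the inputs: Syn2, Isg15, Itga7, Adam17 and Dcbld2, in the order of their naming. The call was lost (adjusted p in brackets) for St3gal6 without Mkrn3ox 1 or 3 or wt 1 or 2 (up to 0.0913) and in 1 other fit (0.176).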

How the results depend on the processing

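Scaling moved the counts of rows most. With library size alone, 507 rows were higher and 189 lower, against 217 and 309; among rows without a more abundant opposite-strand neighbour the counts were 416 and 149, against 183 and 236. Leaving out 1 library gave 132 to 169 higher and 221 to 279 lower rows (110 to 149 and 169 to 215 without such neighbours), and 9 to 14 rows that differed between fractions. That last count, 11, was 43 with no filter and 42 by DESeq2; DESeq2 called 296 higher and 357 lower rows. Restricted to the 3316 rows with at least 10 CPM in the inputs and no more abundant gene within 5 kb, 120 were higher and 165 lower. Over all 5033 tested rows these counts were 217 and 309. The other settings (DESeq2 size factors, a mean of 20 counts, no filter, the cytoplasm alone, without mt-Nd6 and Grtp1) gave 210 to 253 higher and 247 to 306 lower rows.

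The replicate numbers did not pair the libraries: same-numbered libraries correlated at 0.03, −0.04 and −0.01 in their deviations from the group means, and 1 of 3 correlated best with its own number. With replicate as a block 195 rows were higher and 280 lower (195 and 242 in the cytoplasm alone), and 9 differed between fractions.

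Of the 130 rows picked by the naming rule that passed the test 72 kept their call in every alternative, 56 lost it with 1 library left out and 34 in another fit, and none changed sign; the cause was not tested. Sign changes arose in 4 rows that had not passed the test: Gnrh1 was −0.045 without wt library 1; Malat1 was −0.63 without Mkrn3ox library 1, −0.41 without wt library 3; Mkrn2 was 0.26 with library size, 0.028 with a mean of 20 counts, 0.032 without Mkrn3ox library 2; Xist was 2.5e-05 with DESeq2 size factors, 0.33 with library size, 0.090 with a mean of 20 counts, 0.015 with the replicate block, 0.60 without Mkrn3ox library 3, 0.78 without wt library 2; with 1 library left out they ranged over −0.045 to 1.02 for Gnrh1, −0.63 to 0.61 for Malat1, −0.22 to 0.032 for Mkrn2, −1.01 to 0.78 for Xist. Of 36 cytoplasmic list medians 23 kept their sign in these fits. Of those given above, vesicle coats and secretory traffic (up to 0.18, with library size) and X-linked MAGE genes (up to 0.58, without wt library 2) did not. Nor did the GnRH neuron factors (up to 0.299, with library size) and lysosomes with autophagy (up to 0.323, with library size). Depth limits all rows of few counts, among them Gnrh1 with 11 counts in its lowest library.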

Other observations

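Rows of the enzymes that build N-linked sugars and GPI anchors in the ER, a list written after the called rows were seen and so without a test, were low in the Mkrn3ox cytoplasm. Of 57 listed genes 20 were tested, 15 had a negative change and 7 were lower, against 6.14% lower among all rows. Because the called rows were known when the list was written, its counts and medians cannot be weighed against those of all rows. Stt3a, the catalytic subunit of oligosaccharyltransferase, had a log2 fold change of −2.57, and Magt1, a subunit of the same enzyme, −1.63. Alg11 (−2.36, on chromosome 8) and Alg14 (−1.46) extend the sugar precursor. Pigk (−2.03) attaches GPI anchors to proteins and Pigb (−1.18) builds them. Edem3 (−2.14) trims mannose from misfolded glycoproteins. The median of the list was −1.15 in the cytoplasm, −0.92 without chromosome 8 and −0.03 in total RNA, where 2 rows were lower. Calls did not hold (adjusted p in brackets) for Alg11 without Mkrn3ox 1 or 2 or wt 1 or 2 (up to 0.108) and in 2 other fits (up to 0.0848) and Alg14 without Mkrn3ox 2 or 3 or wt 1, 2 or 3 (up to 0.146) and in 1 other fit (0.102). The same applied to Pigk without Mkrn3ox 2 or 3 or wt 1, 2 or 3 (up to 0.164) and in 7 other fits (up to 0.116).

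A list of receptors of growth factor, Wnt, Notch and guidance signals, which also holds ephrin ligands, was chosen in the same way. It gave 7 lower rows of 32 tested, and 28 of the 32 changes were negative. These counts cannot be weighed against all rows either. The lower rows were the ephrin Efnb2 (−4.55), the FGF receptor Fgfr2 (−4.41), the Wnt receptors Fzd2 (−2.83) and Fzd4 (−1.65), the insulin receptor Insr (−3.34), Notch2 (−0.86) and the semaphorin and VEGF co-receptor Nrp1 (−3.87). Efnb2, Insr and Nrp1 lie on chromosome 8, and the median without that chromosome was −0.77, against −0.83 with it. In total RNA the median was −0.23, with 1 higher and 3 lower rows. Adjusted p exceeded 0.05 (value in brackets) for Fgfr2 in 1 other fit (0.0562), Fzd2 without Mkrn3ox 2 or 3 or wt 2 (up to 0.0792) and in 1 other fit (0.065) and Fzd4 without Mkrn3ox 1, 2 or 3 or wt 2 or 3 (up to 0.121) and in 3 other fits (up to 0.0934). It also did for Insr without Mkrn3ox 1, 2 or 3 or wt 1 or 3 (up to 0.189) and in 3 other fits (up to 0.0817) and Notch2 without Mkrn3ox 1 or 3 or wt 1, 2 or 3 (up to 0.129) and in 4 other fits (up to 0.183).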
